A study of Danio rerio with 12 samples.

Results

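The transcripts of *cipca* and *per1a*, which encode a pair of repressors of the circadian clock, were followed in the brains of zebrafish carrying the *psen2* S4Ter allele. Both genes were chosen by name because their levels fall in mutant brains, so the mutant values of these 2 genes given here are a description and carry no test. They are 2 of 32057 genes in the count table, and both are among the 16021 genes that passed the filter on low counts. The libraries came from whole brains of 12 female fish aged 6 months, with 4 fish of each genotype and 1 RNA-seq library per fish. The labels' extraction text names pooled larvae instead, against their own tissue label and the study's methods, which give single adult brains. WT fish carried no mutant allele, Het fish carried S4Ter on a single copy of *psen2*, and Hom fish carried it on both copies. All fish were siblings of one family raised in the same tank, and every S4Ter copy descends from a single founder mutation made with CRISPR/Cas9 in the Tübingen strain. S4Ter is a small deletion that places a stop codon shortly after the start codon of *psen2*, a catalytic subunit gene of gamma-secretase. The study holds that S4Ter is not a null allele, and that it probably yields shortened Psen2 proteins from later start codons.

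The circadian clock is a feedback loop. A dimer of CLOCK and BMAL1 binds E-box elements and switches on the genes of its own inhibitors. Period and cryptochrome proteins build up, enter the nucleus and silence the dimer, and the cycle starts again once they are degraded. In mammals, CIPC binds CLOCK and inhibits its activity, the BHLHE proteins compete for E-boxes, and the receptors REV-ERB and ROR repress and activate *Bmal1*. Most zebrafish tissues, the brain among them, keep such a clock and set it by light. The level of many clock transcripts therefore depends on the hour at which a brain is taken. Neither the labels nor the methods give that hour for these fish, and its part in the values was not tested.

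Total counts lay between 11878943 and 17026801 per fish. Levels are CPM, a gene's share of the counts on tested genes scaled to a common library size by TMM, and 3 counts amount to 0.233 to 0.331 CPM. The labelled tissue carried its markers, since the neuronal gene *ELAVL3* lay between 663 and 893 CPM in every fish. Mitochondrial rRNA took 17.9% to 26.4% of the counts of WT fish and 31.3% to 35.5% of those of mutant fish, without overlap. The study reports a correlation, which it could not explain, between differential expression of genes and rRNA contamination of its samples. It presumes that this rRNA was left by inefficient depletion and gives no mitochondrial share, so its measure may differ from the share given here. The summed level of 3 radial glia markers, none at 0 in any fish, was also separate between WT and mutants. It was 767 to 1134 CPM in WT, 1444 to 1771 CPM in Het and 1232 to 1559 CPM in Hom. Most of this sum was *GLUL*, at 717 to 1089 CPM in WT and 1168 to 1709 CPM in mutants (edgeR FDR = 0.00575). *GFAP* and *FABP7* overlapped between WT and mutants and were not called (edgeR FDR = 0.107 and 0.345). The summed markers of neurons, oligodendrocytes, microglia, blood, pituitary and retina overlapped between WT and mutants. Retinal markers summed to 0.697 to 46.9 CPM in WT and up to 97.2 CPM in Hom, and the pituitary gene *gh1* was at 0 in 7 fish. The part of any of these measures in the results was not tested. In whole brain, fewer cells of a type and less RNA per cell cannot be told apart. Both alleles of *psen2* are added in the table, so its level does not check the genotype labels. The study did check them in each RNA-seq sample, from transcript counts of each allele. It reports no WT allele in Hom, no mutant allele in WT and a nearly even ratio in Het. *PSEN2* was measured at 17.8 to 22.6 CPM in WT, 16.9 to 22.3 CPM in Het and 16.5 to 21.0 CPM in Hom, with a logFC of -0.07 for the mutant allele (edgeR FDR = 0.629).

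*cipca* (ENSDARG00000075397) lies on chromosome 17 of GRCz11 at 44756247 to 44761580, on the plus strand, with 4 exons that sum to 1767 bases. No other annotated gene overlaps it. Its level in the WT fish 79, 86, 88 and 95 was 55.5, 59.2, 55.5 and 55.2 CPM. In the Het fish 80, 81, 84 and 89 it was 28.1, 30.4, 31.1 and 26.2 CPM. In the Hom fish 78, 82, 83 and 85 it was 23.3, 20.2, 19.5 and 25.5 CPM. The WT fish thus sat close together, all 8 mutant fish lay below all 4 WT fish, and all 4 Hom fish lay below all 4 Het fish. These levels rest on 545 to 763 counts per WT fish and 202 to 328 counts per mutant fish, for which counting error alone is 3.62% to 7.04% of the value.

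*per1a* (ENSDARG00000056885) lies on chromosome 10 at 22809715 to 22831611, on the minus strand. Its exon entries merge into 20 exons of 7377 bases in all. The gene model *si:ch211-237l4.9* overlaps it on the same strand and had 0 counts in every fish. The level of *per1a* in the same order of fish was 248, 239, 206 and 206 CPM in WT. It was 129, 142, 112 and 117 CPM in Het and 96.4, 94.1, 109 and 122 CPM in Hom. Again every mutant fish lay below every WT fish. Unlike the values of *cipca*, those of Het and Hom overlapped, with Hom 85 above Het 84 and Het 89. Counts ran from 2364 to 3087 in WT and from 986 to 1534 in mutants, which puts counting error between 1.80% and 3.18%.

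**Figure D1:**
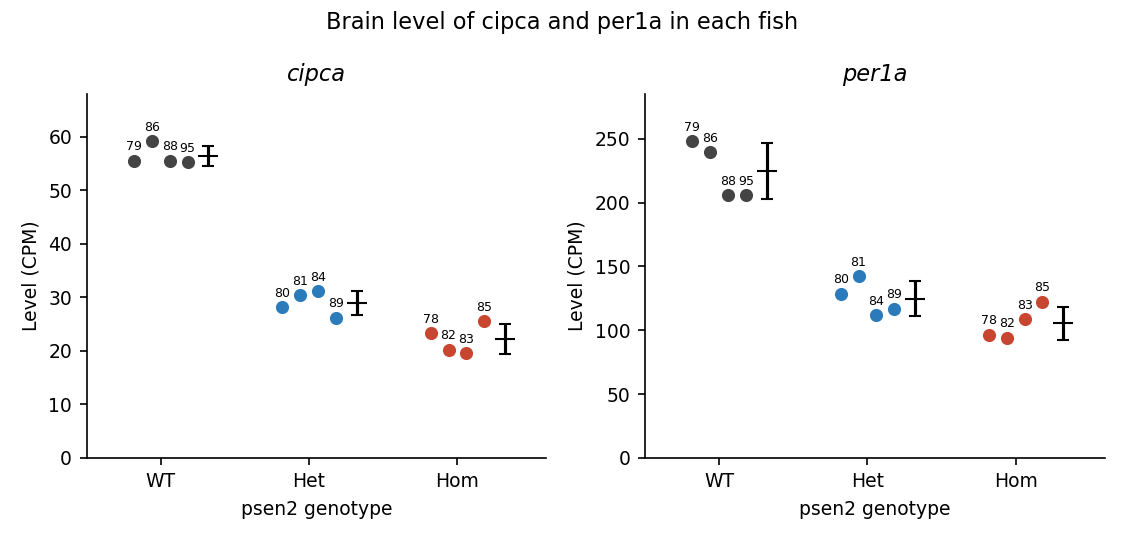
Level of *cipca* (left) and *per1a* (right) in CPM against *psen2* genotype. Each point is 1 fish with its number, and the bar beside each group gives the mean ± SD of 4 fish. All mutant fish lie below all WT fish for both genes. The Hom fish lie below all Het fish for *cipca* and overlap them for *per1a*.

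The mean of *cipca* was 56.4 ± 1.89 CPM (SD, n = 4) in WT, 28.9 ± 2.23 CPM in Het and 22.1 ± 2.78 CPM in Hom. The level in Het was 0.514 times that in WT (logFC -0.96, SE 0.10) and the level in Hom was 0.393 times that in WT (logFC -1.35, SE 0.10). For *per1a* the means were 225 ± 22.2 CPM in WT, 125 ± 13.5 CPM in Het and 105 ± 12.98 CPM in Hom. Het stood at 0.555 times WT (logFC -0.85, SE 0.11) and Hom at 0.469 times WT (logFC -1.09, SE 0.12). Het and Hom are both set against the same WT fish. With Het and Hom averaged, the logFC was -1.15 (SE 0.09) for *cipca* and -0.97 (SE 0.10) for *per1a*, the 111th and the 230th lowest of the 16021 genes. For comparison, 17.4% of all tested genes were called lower in mutants and 16.8% higher at an FDR under 0.05, and in 8.76% of genes all 8 mutant fish lay below all 4 WT fish. Nothing is read from these shares for *cipca* and *per1a*, because the same contrast chose them.

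Per kilobase of exon, both repressors stood at a like level in WT brain. The RPKM was 31.9 ± 1.07 (SD, n = 4) for *cipca* and 30.5 ± 3.01 for *per1a*, and in Het it was 16.4 ± 1.26 and 16.9 ± 1.83. The spread between fish of one genotype was small for both. On the log2 scale the within-genotype SD was 0.12 for *cipca* and 0.16 for *per1a*, against a median of 0.23 over all tested genes. A fall in these same fish chose both genes, so nothing is read from this comparison. Their mean levels stood at the percentiles 66.7 and 92.8 of all tested genes, and genes of like level were not compared.

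Whether a second mutant copy goes with a further difference was asked by setting Hom against Het, a contrast that the choice of genes did not use. *cipca* had a logFC of -0.39 (SE 0.10, 95% interval -0.61 to -0.16), which is 0.765 times the Het level. The two-sided exact permutation test of the 4 against 4 fish gave p = 0.0286, the smallest it can give. Adjusted over all genes, the edgeR quasi-likelihood test did not call it (unadjusted p = 0.00267, FDR = 0.989). *per1a* had a logFC of -0.24 (SE 0.11, 95% interval -0.49 to 0.0020), with p = 0.114 in the exact permutation test and FDR = 0.989 in edgeR. Its interval therefore allows no difference as well as one of the size seen for *cipca*. Over all tested genes 0% of genes were called between Hom and Het, 607 genes had an unadjusted p under 0.05, and in 1.57% of genes all 4 Hom fish lay below all 4 Het fish. In a further 1.46% all 4 Hom fish lay above, and each such gene reaches the same smallest permutation p. In the study, some genes passed an FDR of 0.05 between Hom and Het. Its fit used a normalization for GC content and length and a likelihood-ratio test.

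The levels of *cipca* and *per1a* were also compared fish by fish. Within the 8 mutant fish, Pearson's r of the log2 CPM was 0.71 (exact permutation p = 0.0524) and Spearman's rho was 0.67 (permutation p = 0.0831). Without the 2 fish farthest from the median of *cipca*, r was 0.63. The relation thus did not pass 0.05 by either measure, and neither p is adjusted. The mutant fish differ by genotype too, and as deviations from the means of Het and of Hom their r was 0.38 (exact permutation p = 0.34). Leaving out single mutant fish moved r from 0.59 without Hom 82 (exact permutation p = 0.162) to 0.84 without Het 84 (exact permutation p = 0.0208). Without Hom 83 it was 0.78 (exact permutation p = 0.0397), and without each of the other fish p stayed above 0.05.

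**Figure D2:**
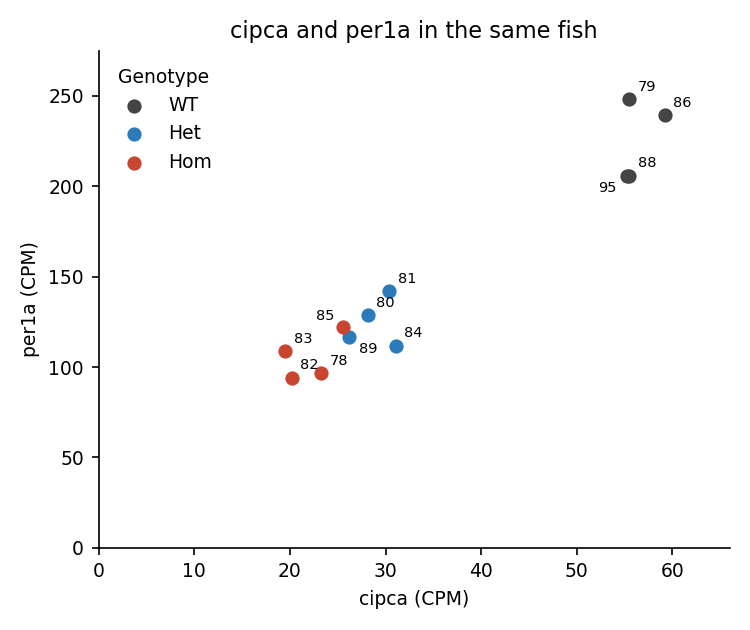
Level of *per1a* against that of *cipca*, both in CPM, with 1 point per fish coloured by genotype and labelled with the fish number. The 4 WT fish lie apart at 55.2 to 59.2 CPM of *cipca*, and the 8 mutant fish lie between 19.5 and 31.1 CPM.

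The other parts of the clock were read from a list of 65 gene symbols grouped by role, of which 59 were located in the table and 55 besides *cipca* and *per1a* were tested. In mutants 15 of the 55 rose and 15 fell at an FDR under 0.05 (edgeR), which is 27.3% each way beside 16.8% and 17.4% of all genes. The same shares of all genes stand beside the counts by role below, which rest on 3 to 10 tested genes each. The median logFC of the list was 0.03, beside 0.02 for all tested genes, and the median size of the change was 0.37 beside 0.28. All 8 mutant fish lay below all WT fish for 10 of them and above for 9, where all genes gave 8.76% and 7.66%. The criteria of the study's methods were a Bonferroni-adjusted p under 0.01, or an FDR under 0.01 with a logFC beyond 1. By these, 3 clock genes were lower and 1 higher, against 1% and 1.53% of all genes. The study applied the criteria to its own fit, with another normalization and test, and called more genes. Between Hom and Het 0 of the 55 passed an FDR of 0.05 in edgeR. An unadjusted p under 0.05 fell to 3 of the 55, beside 607 of all 16021 tested genes. The 3 were *bhlhe41*, lower in Hom, and *BMAL1* (ENSDARG00000006791) and *cry3a*, higher, and nothing is read from them. Symbols in capitals are those of the human counterpart.

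**Figure D3:**
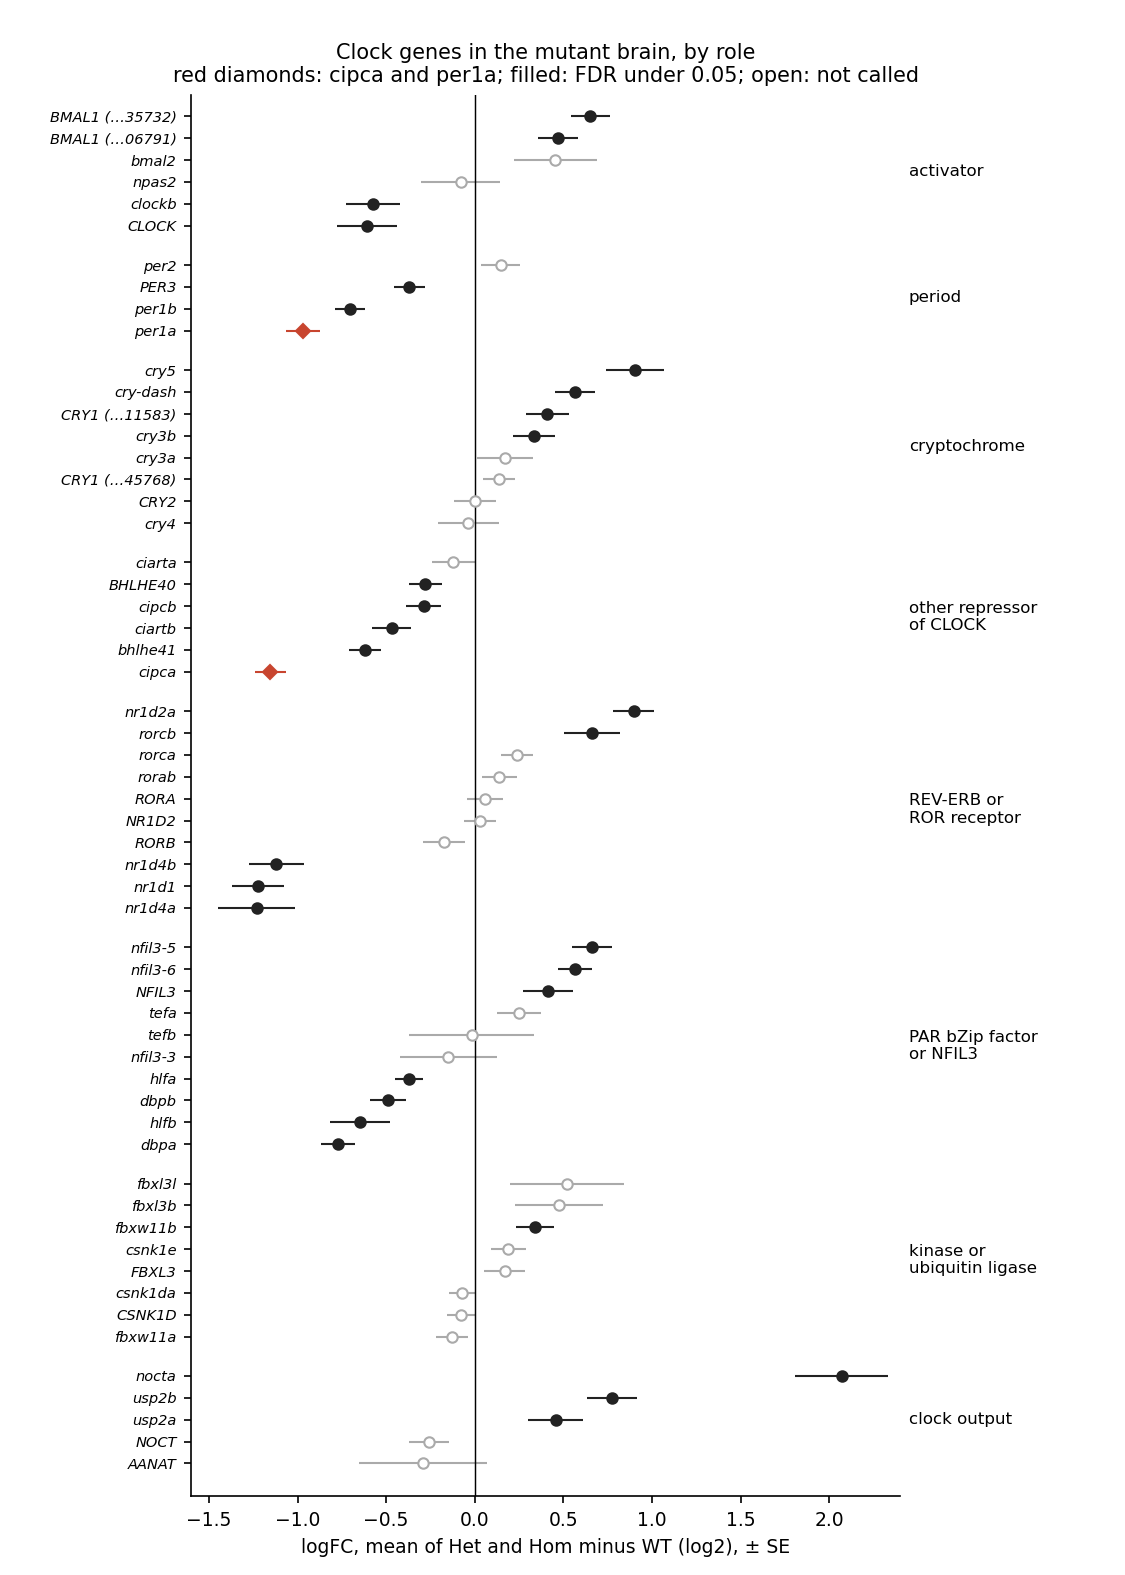
Change of 57 clock genes in mutants, as logFC ± SE, grouped by role (both mutant genotypes averaged, less WT). Filled points passed an FDR of 0.05, open points did not, and the red diamonds are *cipca* and *per1a*, which carry no test. The period genes apart from *per2* and all genes of the other repressors of CLOCK lie left of 0, while cryptochromes that passed the test lie right of it.

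Among the period genes, whose proteins form the inhibitory arm with the cryptochromes, 2 of the 3 others fell. *per1b*, the paralogue of *per1a*, measured 773, 708, 701 and 696 CPM in WT, 455, 454, 543 and 420 CPM in Het and 434, 402, 377 and 452 CPM in Hom. Its logFC was -0.71 (SE 0.09, FDR = 5.05e-04) and the mutant fish did not overlap the WT fish. *PER3* was smaller in its change, with a logFC of -0.37 (SE 0.09, FDR = 0.00645) and no overlap either. *per2*, the period gene that light induces in zebrafish, had a logFC of 0.15 (SE 0.11, FDR = 0.322), and its groups overlapped.

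Of the 5 other tested repressors of CLOCK and BMAL1 in the group of *cipca*, 4 fell. *bhlhe41*, an E-box repressor, went from 324 to 401 CPM in WT to 241 to 305 CPM in Het and 206 to 236 CPM in Hom, with a logFC of -0.62 (SE 0.09, FDR = 7.81e-04). It was the single other gene of the list whose 4 Hom fish all lay below the 4 Het fish, at a logFC of -0.33 (SE 0.10, unadjusted p = 0.00673, FDR = 0.989 in edgeR). That is 1.82% of the list beside 1.57% of all genes, and *npas2* was the 1 gene of the list with all Hom fish above all Het fish. *ciartb*, a counterpart of the mammalian repressor CHRONO, had a logFC of -0.47 (SE 0.11, FDR = 0.0065). *cipcb*, the paralogue of *cipca*, fell less in size, at a logFC of -0.29 (SE 0.10, FDR = 0.0385) with WT and mutant fish overlapping. That call was lost with upper-quartile library sizes, without the filter on low counts and with a length correction. *BHLHE40* was at -0.28 (SE 0.09, FDR = 0.0341), with WT and mutant fish overlapping and the call lost without the filter. *ciarta* was at -0.12 (FDR = 0.473).

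The lowest logFC of the list belonged to REV-ERB genes, whose proteins repress *Bmal1*. *nr1d1* measured 405, 408, 227 and 268 CPM in WT, 153, 153, 184 and 134 CPM in Het and 142, 131, 115 and 116 CPM in Hom. This is a logFC of -1.22 (SE 0.15, FDR = 5.05e-04), and the WT fish themselves split into 2 high and 2 lower values. The high values came from WT 79 and WT 86, whose mitochondrial rRNA share was 18.9% and 17.9%. In WT 88 and WT 95 that share was 26.4% and 23.9%. Among WT fish *per1a* was split the same way and *cipca* was not. Other genes called lower in mutants shared the split, among them *CLOCK*, *clockb*, *nr1d4a* and *hlfb*. *dbpb*, also called lower, was instead lower in WT 79 and WT 86 than in WT 88 and WT 95. A relation to rRNA was not tested. *nr1d4a* and *nr1d4b*, of the same subfamily as *nr1d1*, stood at 14.9 and 16.3 CPM in WT. They had a logFC of -1.23 (SE 0.22, FDR = 0.00166) and -1.12 (SE 0.16, FDR = 7.10e-04). *nr1d2a*, another REV-ERB gene, moved the other way, from 82.03 CPM in WT to 153 CPM in Het and 153 CPM in Hom (logFC 0.90, SE 0.12, FDR = 5.47e-04). *NR1D2* was at 0.03 (FDR = 0.836). Of the ROR activators, *rorcb* rose (logFC 0.66, SE 0.16, FDR = 0.00752), with WT and mutant fish overlapping, and the other 4 were not called.

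Of the 6 activators 2 rose and 2 fell. Both *BMAL1* genes rose, ENSDARG00000035732 from 7.64 CPM in WT to 11.7 CPM in Het and 12.4 CPM in Hom (logFC 0.65, SE 0.11, FDR = 0.00139). The other, ENSDARG00000006791, went from 15.02 to 18.2 and 23.8 CPM (logFC 0.47, SE 0.11, FDR = 0.00664). In both, all mutant fish lay above all WT fish. Their partner genes *CLOCK* and *clockb* fell, with a logFC of -0.61 (SE 0.17, FDR = 0.0158) and -0.58 (SE 0.15, FDR = 0.0122), although WT and mutant fish overlapped. For both genes only WT 79 and WT 86 lay above all mutant fish. WT 88 and WT 95, at 36.6 and 42.6 CPM of *CLOCK*, were within the mutant range of 27.4 to 45.3 CPM. Their *clockb* was 47.1 and 45.4 CPM, beside 32.2 to 47.6 CPM in mutants. *npas2* (-0.08, FDR = 0.81) and *bmal2* (0.45, FDR = 0.148) were not called.

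Of the 8 cryptochrome genes tested 4 rose and 0 fell by the edgeR test, and *cry1ba* and *cry1bb* were not located. *cry5* (logFC 0.91, SE 0.16, FDR = 0.00183) and *cry-dash* (logFC 0.57, SE 0.11, FDR = 0.00313) were the largest of these. Both encode relatives of the cryptochromes with DNA repair activity rather than repressors of CLOCK. *CRY1* (ENSDARG00000011583) was at 0.41 (SE 0.12, FDR = 0.0189) and *cry3b* at 0.33 (SE 0.12, FDR = 0.0443), a call lost without the filter on low counts. WT and mutant fish overlapped for both genes. The copies with a higher WT level, *CRY1* (ENSDARG00000045768, 204 CPM against 35.7 CPM) and *cry3a* (106 CPM against 28.9 CPM), were not called. Their logFC was 0.14 (FDR = 0.272) and 0.17 (FDR = 0.423). *CRY2* was measured at 112 CPM in WT and had a logFC of 0.00 (SE 0.12, FDR = 0.988).

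Of the 10 factors that act on D-box elements, 4 fell and 3 rose. The activators *dbpa*, *dbpb*, *hlfa* and *hlfb* fell, and *dbpa* was the largest, from 373 CPM in WT to 220 CPM in Het and 217 CPM in Hom (logFC -0.77, SE 0.10, FDR = 5.05e-04). *tefa* was at 0.25 (FDR = 0.139) and *tefb* at -0.02 (FDR = 0.975). *nfil3-5*, *nfil3-6* and *NFIL3*, which encode the repressor NFIL3 and its relatives, rose with a logFC of 0.66, 0.57 and 0.41. WT and mutant fish overlapped for *hlfb* and *NFIL3*, and *NFIL3* was no longer called after a length correction.

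The kinases and ubiquitin ligases that set the stability of clock proteins held few calls. Of 8 tested, *fbxw11b* alone was called (logFC 0.34, SE 0.11, FDR = 0.0272), with WT and mutant fish overlapping. The casein kinase genes *csnk1da*, *CSNK1D* and *csnk1e* were between -0.08 and 0.19. Of the output genes, 3 of 5 rose. *nocta*, a counterpart of mammalian nocturnin, had the largest change of the list, with 6.11, 5.89, 4.62 and 2.76 CPM in WT and 10.1 to 25.7 CPM in the 8 mutants (logFC 2.07, SE 0.26, FDR = 5.16e-04). Its paralogue *NOCT* was at -0.26 (FDR = 0.093). *usp2b* and *usp2a*, genes of a deubiquitinase, rose with a logFC of 0.77 and 0.46, and WT and mutant fish overlapped for *usp2a*. *AANAT*, an enzyme gene of melatonin synthesis, was at 2.39 CPM or lower in the mean of each genotype (logFC -0.29, FDR = 0.564). *aanat2*, its pineal counterpart, and *nfil3-4* did not pass the filter on low counts. The 3 pineal markers located, of which *ASMT* was at 0 in 2 fish, summed to 1.22 to 26.8 CPM in WT, 1.87 to 21.6 CPM in Het and 3.73 to 42.2 CPM in Hom, a spread of more than 10 times between fish of each genotype.

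**Figure D4:**
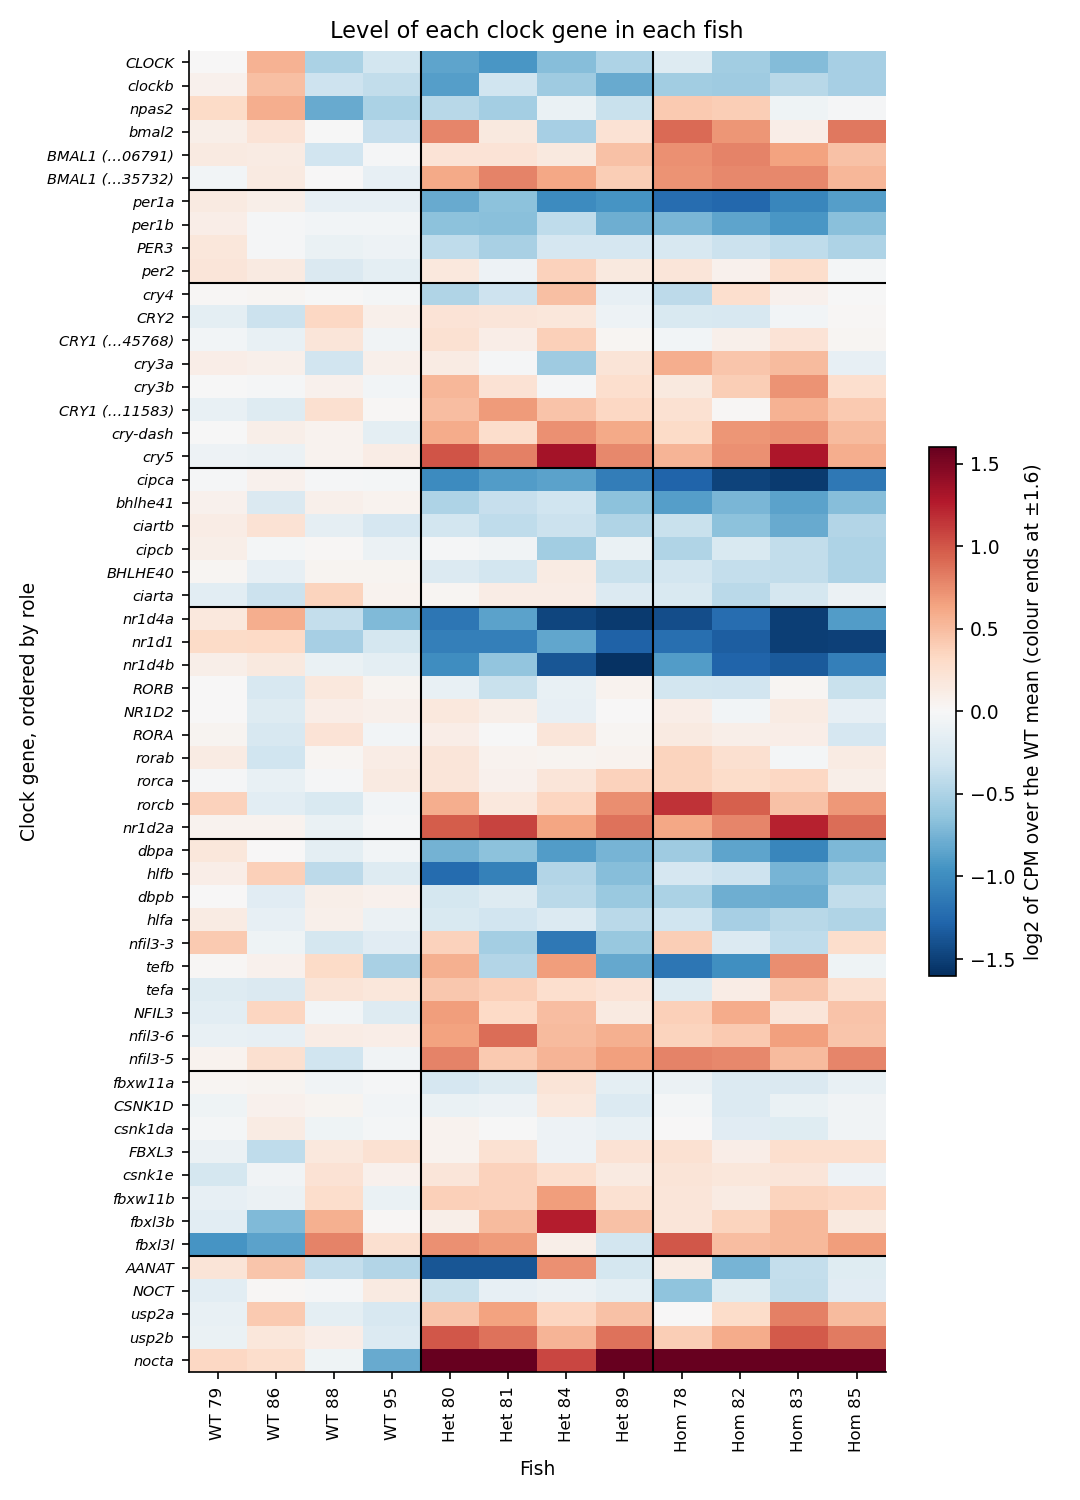
Level of 57 clock genes in each of 12 fish as log2 of CPM over the WT mean, in colour (blue lower, red higher), with genes ordered by role and fish by genotype. *cipca*, *per1a*, *per1b* and *nr1d1* are lower in each of the 8 mutant fish than in any WT fish, and *nocta* and *nr1d2a* are higher.

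The genes most like each repressor across fish were taken by Pearson's r of log2 CPM over all 12 fish, where the genotype is shared by every gene and the r is a description. For *cipca* they were *per1b* (r = 0.98), *per1a* (r = 0.96), *GPS2* (r = 0.94), *apba1b* (r = 0.94) and *prox1a* (r = 0.94). *GPS2* encodes a subunit of the NCoR corepressor complex and *prox1a* a homeobox factor. For *per1a* they were *apba1b* and *C2CD2L* (both r = 0.97), *camkvl* (r = 0.97), *cipca* (r = 0.96) and *nptxra*, a neuronal pentraxin receptor gene (r = 0.96). *apba1b*, a gene of the Mint adaptors of synaptic vesicle release, stood on both lists, with 112 CPM in WT, 75.2 CPM in Het and 69.0 CPM in Hom.

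Once the mean of each genotype was taken off, other genes came first. *ZDHHC16* (r = 0.92), *tpm3* (r = 0.91), *rhoab* (r = 0.90), *CIAPIN1* (r = 0.89) and *MYOZ2* (r = 0.88) followed *cipca* most closely, and none of them is on the clock list. *WIPI1* (r = 0.94), *RNF34* (r = 0.91), *TEAD3* (r = 0.90), *neil1* (r = 0.90) and *RBM18* (r = 0.89) followed *per1a*. These are the top end of 16021 values of r over 12 fish, and no r was tested. Some rest on low levels, with *MYOZ2* at 1.91 CPM and *TEAD3* at 3.81 CPM in WT. *per1b* had r = 0.75 with *cipca* and 0.08 with *per1a*. By this measure *per1a* was 2238th of 16021 genes for *cipca*, and *cipca* was 2478th for *per1a*. Over the 12 fish *cipca* and *per1a* thus went from r = 0.96 to r = 0.38 when the difference between genotypes, which chose them, was taken off.

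The neighbourhood of each gene was read from the 5 tested genes on either side. Around *cipca*, within 503 kb, *ZDHHC22* (logFC 0.71, SE 0.17, FDR = 0.00825), *TMEM63C* (0.36, SE 0.12, FDR = 0.0333) and *NGB* (0.88, SE 0.19, FDR = 0.00423) rose and *FAM161B* (-0.46, SE 0.16, FDR = 0.0394) fell. *ZDHHC22*, a palmitoyltransferase gene, begins 6.14 kb beyond the end of *cipca* and went from 8.78 to 14.4 CPM, opposite in direction to its neighbour. *NGB* encodes neuroglobin, an oxygen-binding protein of neurons. Around *per1a*, within 276 kb, *kdm6bb*, *GIGYF1* and *vamp2* fell and *ARRB2* and *MED11* rose. *kdm6bb*, a histone demethylase gene 49.1 kb away, fell from 324 to 173 CPM (logFC -0.91, SE 0.16, FDR = 0.00153), close in size to *per1a*. *vamp2*, a synaptic vesicle gene 6.75 kb away, was at -0.27 (SE 0.08, FDR = 0.0256). In all, 5 of the 20 neighbours rose and 4 fell, 45% together, where 34.1% of all tested genes passed.

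**Figure D5:**
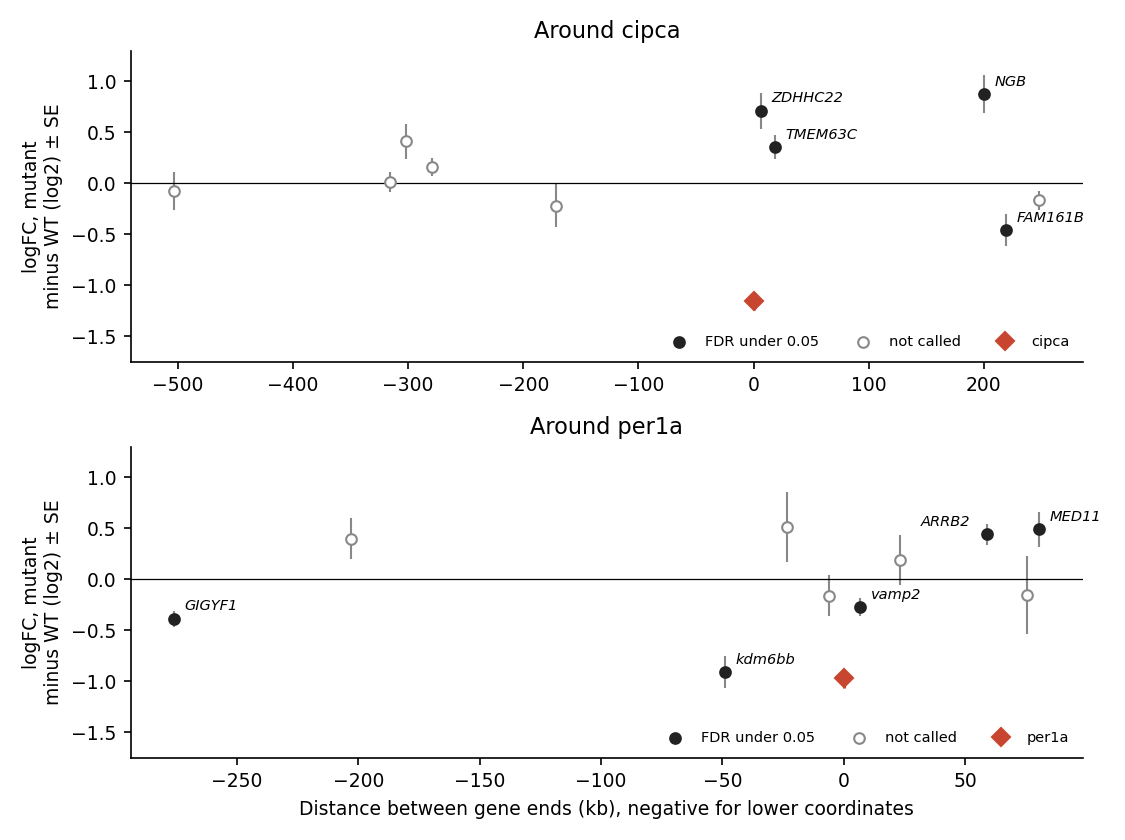
Change of *cipca* (top), *per1a* (bottom) and the 5 tested genes on either side of each, as logFC ± SE for the averaged mutants less WT, against the distance between gene ends in kb. Filled points passed an FDR of 0.05 and are named. Around each repressor the named genes include some that rose and some that fell.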

How the data were processed

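RNA-seq counts of 12 brains (4 WT, 4 Het, 4 Hom) were used. Per the submitters' processing notes and the study's methods, cutadapt 1.14, STAR 2.7.0d on GRCz11 and featureCounts of Subread 1.5.2 gave the deposited counts, which are raw exonic counts per Ensembl gene. The deposited table also holds a column of another kind, the exonic length of a gene. No library batch is given in the labels. Genes were kept above 1.5 CPM in at least 4 fish. The study left out rRNA genes by biotype. No table used here gives one, so the mitochondrial rRNA genes were taken as the unnamed genes of the mitochondrial chromosome over 500 bases, leaving 16021 genes.

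Counts were scaled by TMM and fitted over the 3 genotypes with the quasi-likelihood method in edgeR 4.0.16, run in R 4.3.3 with limma 3.58.1, with Benjamini-Hochberg adjustment over all genes (FDR). logFC is log2. The mutant contrast averages both mutant genotypes and subtracts WT. Total counts were 11878943 to 17026801 per fish. Intervals cover counting and fish-to-fish spread within these 12 libraries, and the counting error given covers counting only. The test was checked on simulated counts that had the same spread for all genes and no rRNA difference between genotypes. That check therefore does not cover these features of the real libraries.

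Of 32057 identifiers, 1811 were named by the study's annotation and others by a table of gene names, 29036 in all. Clock symbols not located were *cry1ba*, *cry1bb*, *nfil3-2*, *csnk1ea*, *fbxl21* and *btrc*. The genes named were *cipca*, *per1a*, *psen2*, the located clock genes, the 5 genes most like each of *cipca* and *per1a* by each measure, and neighbours past an FDR of 0.05. Genes and lists were chosen with earlier results of these data known. The mutant sizes, the Hom against Het tests and the clock gene counts were repeated with DESeq2 1.42.0, a likelihood-ratio test, upper-quartile library sizes, other filters, a length correction, no mitochondrial genes and the omission of single fish, and the Hom against Het tests also with a fit of mutants only. The correlation and the neighbour count had fewer alternatives, and the likeness ranks and marker sums had none.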

Additional observations from a re-analysis of the deposited data

Results flagged for a closer look

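*cipca* was flagged because Hom and Het differed in an exact permutation test, with a logFC of -0.39, although the edgeR test adjusted over all genes did not call it. That permutation p falls to every gene whose Hom and Het fish do not overlap, 1.57% of all genes with Hom lower and 1.46% with Hom higher. The other flags mark a fish that lay apart from the remaining 3 of its genotype in one clock gene, with the gap judged against the range of the group. A flag can thus mark a small difference where the remaining 3 lie close together, as for *cipca* at 55.2 to 55.5 CPM. There were 12 such flags among 171 groups, and chance flags about 1 group in 20. In WT 86, *cipca* was at 59.2 CPM, *bhlhe41* at 324 CPM and *BHLHE40* at 313 CPM, so the lowest WT value of both BHLHE genes came from the fish with the highest *cipca*. In WT 88, *cry3a* was at 86.1 CPM and *fbxw11b* at 42.8 CPM, and in WT 79 *per1b* was at 773 CPM. In Het fish, *CRY2* was at 105 CPM in Het 89 and *rorab* at 102 CPM in Het 80. In Hom fish, *nfil3-5* was at 48.1 CPM and *RORB* at 13.9 CPM in Hom 83, and *csnk1e* was at 97.9 CPM and *RORA* at 166 CPM in Hom 85.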

How the results depend on the processing

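The size of the mutant difference kept its sign under all 7 alternatives and all 12 omissions of a fish, between -1.22 and -1.12 logFC for *cipca* and between -1.01 and -0.91 for *per1a*. Between Hom and Het the logFC of *cipca* ran from -0.46 to -0.33 and that of *per1a* from -0.32 to -0.18 without single fish, and no alternative brought the FDR under 0.05. Of the other clock genes 14 to 16 rose and 13 to 15 fell under the alternatives. Without single fish 10 to 15 rose, the fewest without WT 79, and 11 to 15 fell, the fewest without WT 86. The shares over all genes moved with them, to 10.4% higher and 11.8% lower without WT 79 and 10.05% and 11.3% without WT 86. Between Hom and Het 0 were called under each. The correlation of *cipca* and *per1a* within mutants ranged from 0.59 to 0.84 without single fish, and its p was 0.0208 without Het 84 and 0.0397 without Hom 83. It was 0.38 (exact permutation p = 0.34) as deviations from the means of Het and of Hom. With 10 genes on each side in place of 5, 16 of 40 neighbours were called, or 40%. No paired analysis was possible because no number is shared between genotypes. Correction for GC content was not run, as GC content was known for 1811 of the 16021 genes at most. Precision is limited by 4 fish per genotype and, for *cipca*, by a counting error of 3.62% to 7.04% per fish.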
